A study of Mus musculus with 15 samples.

Results

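Ccn1 and Ccn2, the most used readouts of the transcriptional coactivator YAP, were followed here with 6 genes of the same pathway in PDGFRβ-positive cells isolated from the brains of miR-210 knockout (KO) and wild-type (WT) mice. The 8 genes are the targets Ccn1, Ccn2, Ankrd1, Amotl2 and Thbs1, the coactivators Yap1 and Wwtr1 (TAZ), and the DNA-binding partner Tead1. They were chosen by name, through their Entrez gene identifiers in the count table, with earlier results of these data known. All 8 had values among the 17892 genes with values, and 7 of the 8 passed a filter on low counts that left 14853 genes to test, Ankrd1 being the exception.

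The 15 RNA-seq libraries fall into 4 groups. KO HI holds 4 libraries of miR-210 knockout mice taken 24 h after neonatal hypoxia-ischemia (HI), a combined loss of oxygen and blood flow to the brain. KO sham holds 4 libraries of knockout mice after the sham procedure, WT HI holds 4 libraries of wild-type mice 24 h after HI, and WT sham holds 3 libraries of sham wild-type mice. Strain, age in days and the form of the knockout allele are not given in the sources used here. The labels give no collection time for the sham libraries, so a difference in time could not be told apart from injury. The labels give each library a number within its group and do not say whether libraries are separate animals, so p-values measure the spread between these samples, which may be technical. No batch is named, and anything that differed in handling between the genotypes cannot be told apart from genotype. The knocked-out gene, Mir210, had no value in any library, so the genotype labels could not be checked on it.

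YAP and TAZ carry no DNA-binding domain of their own. In the nucleus they bind TEAD factors, and the complex switches on genes for matricellular proteins and for regulators of adhesion and growth. The Hippo kinase MST acts through the kinase LATS, which phosphorylates YAP and TAZ and holds them in the cytoplasm. The activity of the pathway therefore depends on the location and phosphorylation of YAP and TAZ as well as on their transcript level. In cells of vessel walls the pathway is known for its response to stretch, to stiff matrix and to cell contact. RNA levels alone were measured here.

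Library totals ran from 15436376 to 18118697 expected counts (estimated reads per gene). All 12 pericyte markers were detected in each group and none was at 0, but transcripts of other cells were abundant too. The mean level of the pericyte list was 7.06 ± 0.70 log2 CPM in KO HI, 7.52 ± 0.77 in KO sham, 8.40 ± 0.23 in WT HI and 8.50 ± 0.33 in WT sham (SD, n = 4, 4, 4 and 3), where CPM are counts per 1000000 of the normalised library size. The summed level of the 12 genes lay between 1887 and 6146 CPM in KO HI, between 3197 and 9391 in KO sham, between 6509 and 9189 in WT HI, and between 8742 and 12130 in WT sham. Pdgfrb itself, the receptor used for the isolation, averaged 357 ± 174 CPM in KO HI, 516 ± 219 in KO sham, 925 ± 125 in WT HI and 861 ± 155 in WT sham (SD). The endothelial list of 10 genes averaged 8.50, 8.97, 9.56 and 9.63 log2 CPM in the same 4 groups, and the microglia list of 10 genes averaged 8.95, 8.33, 7.01 and 7.66 log2 CPM. Neuron markers stood highest in KO sham 1, KO HI 3, KO sham 3 and KO HI 2, at 5.84, 5.22, 3.52 and 3.27 log2 CPM, against 2.38 or less in the other 11 libraries.

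The promoters of 3 of the target genes are shown because the results turn on whether the targets move together and because the TEAD recognition letters GGAATG can be looked for in them. Each is the 250 bases before an annotated start in RefSeq on GRCm38.p6, an older build than that of the deposited table, read 5′ to 3′ on the gene's own strand. Capitals mark GGAATG or, on the other strand, CATTCC. The Ccn1 stretch lies at chr3:145649986-145650235 on the minus strand, the Ankrd1 stretch at chr19:36119845-36120094 on the minus strand, and the Amotl2 stretch at chr9:102717554-102717803 on the plus strand. The Amotl2 stretch falls inside the span of the gene (chr9:102717091-102733418), so the start used for it is not the outermost one.
Ccn1: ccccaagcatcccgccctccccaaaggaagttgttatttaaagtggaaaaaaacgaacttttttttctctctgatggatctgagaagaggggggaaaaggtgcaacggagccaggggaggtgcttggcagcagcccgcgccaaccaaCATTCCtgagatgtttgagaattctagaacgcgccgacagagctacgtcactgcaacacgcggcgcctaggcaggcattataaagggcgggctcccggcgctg
Ankrd1: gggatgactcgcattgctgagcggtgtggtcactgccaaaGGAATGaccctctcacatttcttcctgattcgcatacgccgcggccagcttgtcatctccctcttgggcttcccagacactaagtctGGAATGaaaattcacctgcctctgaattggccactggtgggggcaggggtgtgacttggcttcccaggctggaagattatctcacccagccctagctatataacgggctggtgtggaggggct
Amotl2: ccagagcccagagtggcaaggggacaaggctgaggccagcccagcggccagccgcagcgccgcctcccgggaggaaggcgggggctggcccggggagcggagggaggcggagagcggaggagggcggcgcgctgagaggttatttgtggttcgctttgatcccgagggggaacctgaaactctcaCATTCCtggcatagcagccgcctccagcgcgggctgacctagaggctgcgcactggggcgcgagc
The letters began 103 bases before the start used for Ccn1, 65 bases before that used for Amotl2, and 210 and 123 bases before that used for Ankrd1. The Yap1 and Wwtr1 promoters held them too, 141 bases before the start of Yap1 and 136 or 170 bases before the 2 annotated starts of Wwtr1. Promoter sequence was at hand for 5 of the 8 genes and not for Ccn2, Thbs1 and Tead1. The same letters, on either strand, stood in 12.6% of 32851 promoters of this length and at 2 or more places in 1.02% of them, so the match describes the sequence and does not show a bound site.

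Per kilobase of exon, Ccn1 had the highest mean of the 8 transcripts in each group, with overlap between Ccn1 and Wwtr1 in both knockout groups. In KO sham 1 and KO sham 6, Ccn1 lay below Wwtr1. In WT sham it averaged 95.8 ± 14.4 CPM per kb, followed by Wwtr1 at 60.8 ± 3.95, Ccn2 at 25.7 ± 0.75, Amotl2 at 22.3 ± 1.90, Yap1 at 18.6 ± 0.64, Thbs1 at 8.53 ± 1.38 and Tead1 at 7.39 ± 0.40 (SD, n = 3). Thbs1 and Tead1 overlapped in that order and the other neighbours did not. Ankrd1 averaged 0.0323 CPM per kb in WT sham. The order of the means was not the same after injury. In WT HI, Ccn2 averaged 72.8 ± 18.2 CPM per kb and Wwtr1 53.8 ± 5.74, with ranges that overlapped, and Thbs1 averaged 33.4 ± 4.78. In KO HI, Ccn1 averaged 39.8 ± 19.4, Wwtr1 28.3 ± 6.76, Ccn2 19.9 ± 9.84 and Thbs1 18.6 ± 7.16 CPM per kb (SD, n = 4), and the ranges of these 4 genes overlapped from one to the next. Exon lengths came from GENCODE annotation on GRCm38 and are used for comparing genes only.

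**Figure D1:**
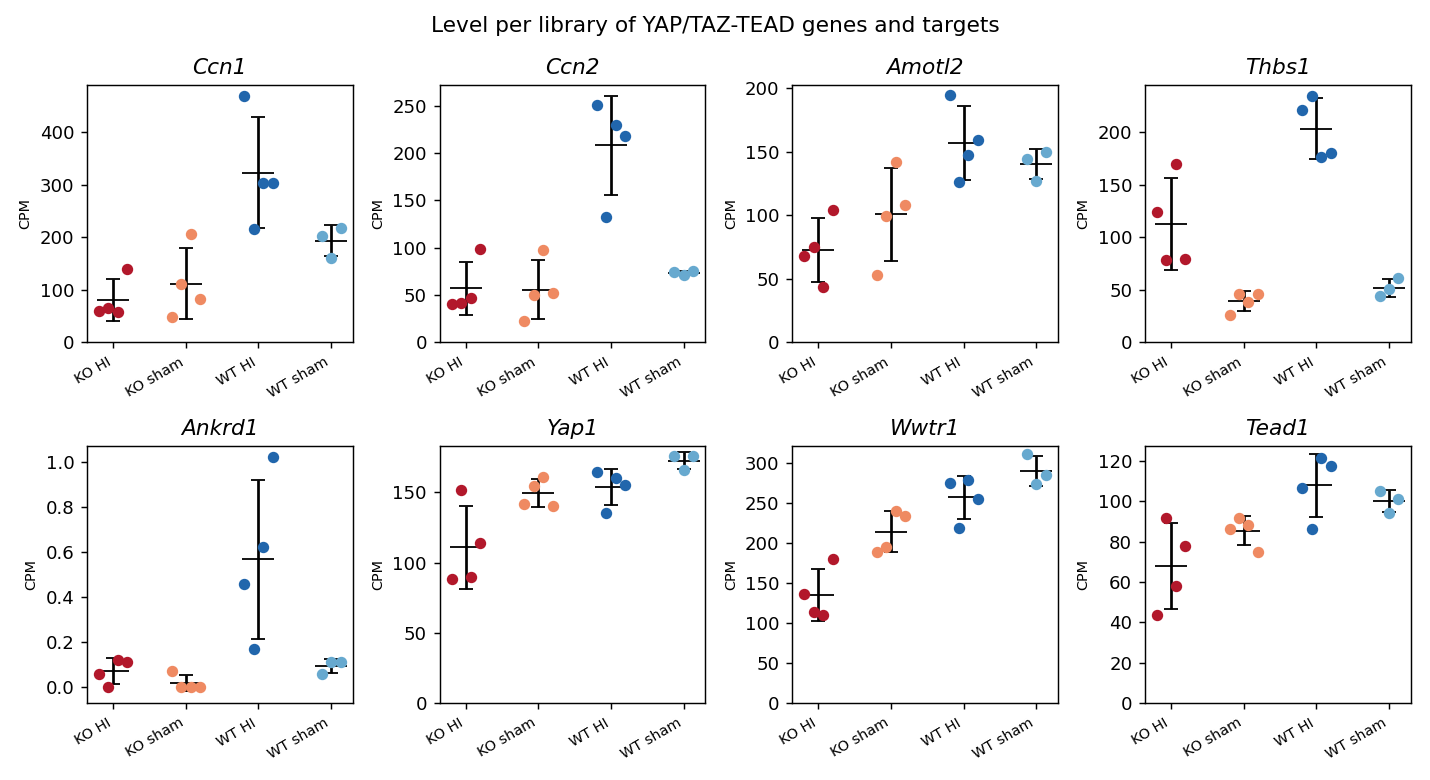
Level of each of the 8 genes in CPM (linear axis) in every library of the 4 groups. Points are libraries, the horizontal line is the group mean and the bar is 1 SD (n = 4, 4, 4 and 3). Ccn1 and Ccn2 lie lower in all 4 KO HI libraries than in the WT HI libraries, and Thbs1 lies higher after HI than in sham in both genotypes.

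The first comparison set KO HI against WT HI. After injury, 6 of the 7 tested genes were lower in the knockout libraries, led by Ccn1, Ccn2 and Amotl2, and the seventh, Yap1, had the same sign without passing the test. A gene counted as called where edgeR's quasi-likelihood test gave it a p under 0.05 after Benjamini-Hochberg adjustment over all 14853 genes. By that rule 6.46% of all genes were lower and 5.96% were higher in KO HI. The median log2 fold change was -0.93 over the 7 genes and 0.06 over all genes. In 5 of the 7 genes the KO HI libraries all lay below the WT HI libraries, against 11.5% of all genes. The count of 6 fell to 3 when KO HI 1, WT HI 1, WT HI 4 or WT HI 5 was left out.

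Ccn1 (Entrez 16007, chr3:145646971-145649985), which encodes a secreted matricellular protein that binds integrins, had 59.3, 65.9, 57.7 and 138.8 CPM in KO HI libraries 1, 2, 3 and 4, against 468.2, 215.1, 303.5 and 302.4 CPM in WT HI libraries 1, 2, 4 and 5. The groups did not overlap, and KO HI 4 stood well above the other 3 knockout libraries. Ccn1 was 4.01-fold lower in KO HI (log2 fold change -2.002 ± 0.42 SE, 95% interval -2.91 to -1.09, adjusted p = 0.0123). Ccn2 (Entrez 14219, chr10:24595442-24598683), a secreted relative of Ccn1 that promotes matrix production, had 40.2, 41.6, 47.2 and 98.98 CPM in KO HI, against 251.1, 132.8, 230.2 and 218.5 CPM in WT HI. It too was separated, with KO HI 4 the highest knockout library and WT HI 2 the lowest wild-type one. Ccn2 was 3.65-fold lower (log2 fold change -1.87 ± 0.40 SE, adjusted p = 0.0124).

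Amotl2 (Entrez 56332, chr9:102717091-102733418) encodes an angiomotin-family protein that is both a target of YAP and an inhibitor that binds it. It had 67.8, 74.8, 43.6 and 104.4 CPM in KO HI, against 195.0, 125.9, 147.5 and 159.4 CPM in WT HI. The groups did not overlap, although KO HI 4 came close to WT HI 2, and the log2 fold change was -1.11 ± 0.28 (SE, adjusted p = 0.0249). The call was lost without KO HI 1, KO HI 3, WT HI 1, WT HI 4 or WT HI 5. Thbs1 (Entrez 21825, chr2:118111876-118127133), which encodes thrombospondin-1, a secreted inhibitor of angiogenesis and activator of latent TGF-β, had 124.0, 77.99, 169.4 and 79.3 CPM in KO HI, against 220.8, 234.6, 176.5 and 180.4 CPM in WT HI. KO HI 3 and WT HI 4 lay next to each other, without overlap. Thbs1 was lower by the test (log2 fold change -0.85 ± 0.25 SE, adjusted p = 0.0422), and it fell short of the threshold when any 1 of 11 of the 15 libraries was left out (KO HI 1, KO HI 2, KO HI 4, KO sham 3, or any WT library), at adjusted p up to 0.112 over all its alternatives.

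Ankrd1 (Entrez 107765, chr19:36111965-36119844), which encodes an ankyrin-repeat protein of muscle sarcomeres and nuclei, was close to the limit of detection. Its counts were 1, 0, 2 and 2 in KO HI, against 8, 3, 11 and 18 in WT HI. All 4 WT HI libraries held more reads of it than any KO HI library. It did not pass the filter, which asked for about 10 counts in at least 3 libraries. With no filter, over 17864 genes, its log2 fold change was -2.86 ± 0.76 (SE, adjusted p = 0.0350), a value that depends on the prior count at such low levels.

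Of the coactivators and Tead1, Wwtr1 had the largest difference. Wwtr1 (Entrez 97064, chr3:57455644-57575910), which encodes TAZ, had 136.1, 113.9, 110.1 and 180.4 CPM in KO HI, against 275.4, 219.0, 278.7 and 254.9 CPM in WT HI. The groups did not overlap, and the log2 fold change of -0.93 ± 0.15 (SE) had the lowest adjusted p of the 7 genes, 0.00583. Tead1 (Entrez 21676, chr7:112679356-112906784) had 43.5, 91.8, 58.2 and 77.9 CPM in KO HI, against 106.6, 86.3, 121.3 and 117.3 CPM in WT HI. KO HI 2 exceeded WT HI 2, so the groups overlapped, and the log2 fold change was -0.67 ± 0.19 (SE, adjusted p = 0.0361). The call was lost in 8 of the 15 fits that leave out 1 library (KO HI 1, KO HI 3, WT HI 1, WT HI 4, WT HI 5 or any WT sham library) and in the fit of the HI groups alone, with adjusted p up to 0.182 over all its alternatives. Yap1 (Entrez 22601, chr9:7931999-8004638) had 88.2, 151.4, 89.9 and 113.6 CPM in KO HI, against 164.4, 135.5, 160.0 and 155.0 CPM in WT HI. KO HI 2 lay within the wild-type range, and the log2 fold change of -0.47 ± 0.15 (SE) missed the threshold (adjusted p = 0.0516).

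Markers of vessel cells and fibroblasts moved with these differences. In KO HI against WT HI, 5 of the 12 pericyte markers and 7 of the 10 endothelial markers were called lower, with a median log2 fold change of -1.18 and -1.02, and all 10 microglia markers were called higher. The fibroblast list of 8 genes, none at 0, averaged 6.58 ± 0.95 log2 CPM in KO HI and 7.87 ± 0.42 in WT HI, with summed levels of 1234 to 5240 CPM in KO HI and 3797 to 7025 CPM in WT HI. The smooth muscle list of 8 genes, none at 0, averaged 5.15 ± 0.47 log2 CPM in KO HI and 5.93 ± 0.48 in WT HI, with summed levels of 707 to 1297 CPM in KO HI and 1218 to 2576 CPM in WT HI. None of the fibroblast genes and 2 of the smooth muscle genes were called lower, and the part of these cells in the results was not tested. In bulk samples, fewer cells of a type and less RNA per cell cannot be told apart. With the mean of the pericyte list as a covariate, Ccn1 had a log2 fold change of -0.78 (adjusted p = 0.0881), Ccn2 of -0.74 (adjusted p = 0.105) and Amotl2 of -0.19 (adjusted p = 0.402), and none of them was called. Thbs1 and Tead1 had -1.0 and -0.57 in that fit (adjusted p = 0.0922 and 0.152), and Wwtr1 had -0.52 and was still called (adjusted p = 0.0239). An endothelial covariate, added after the data were seen, gave -0.89 for Ccn1, -0.86 for Ccn2, -0.18 for Amotl2 and -0.60 for Wwtr1, of which Wwtr1 alone was called (adjusted p = 0.0243). The fits with the pericyte and the endothelial list called 2019 and 2982 of all genes in this contrast, against 1844 in the main fit. Both lists differ between the genotypes, so the covariate and the genotype overlap in what they describe. Without the 4 libraries highest in neuron markers, all 6 calls held and Yap1 was called as well (log2 fold change -0.60, adjusted p = 0.00494). All 4 are knockout libraries, so that fit kept 2 libraries of KO HI and 2 of KO sham. It called 3990 of all genes in this contrast, against 1844 in the main fit.

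Set against Pdgfrb within each library, the 7 tested genes no longer shared 1 direction between KO HI and WT HI. Ccn1 had 16.3 to 29.8 counts per 100 counts of Pdgfrb in KO HI, against 28.6 to 44.6 in WT HI, where KO HI 3 lay just above WT HI 2. The Ccn2 ratio was 11.04 to 24.4 in KO HI, against 17.7 to 24.0 in WT HI, and the groups overlapped. Amotl2 and Thbs1 had higher mean ratios in KO HI, with overlap. The Amotl2 ratio was 17.5 to 27.5 in KO HI, against 15.4 to 18.6 in WT HI, and the Thbs1 ratio was 13.3 to 87.5 in KO HI, against 18.4 to 31.2 in WT HI. The Wwtr1 ratio was 30.3 to 56.8 in KO HI, against 26.3 to 29.2 in WT HI, so that relative to Pdgfrb it was higher in each KO HI library. Yap1 showed the same order, with 19.0 to 55.7 per 100 in KO HI, against 15.7 to 18.04 in WT HI. The Tead1 ratio was 11.94 to 33.7 in KO HI, against 10.2 to 12.6 in WT HI, with overlap. Pdgfrb itself was lower in KO HI, at 193.7 to 596.3 CPM against 751.4 to 1049 CPM in WT HI. A gene at an equal level in both groups would therefore have a higher ratio in KO HI. How many of all genes show ratios without overlap was not computed. These ratios are descriptions of 2 transcripts that may come from different cells.

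**Figure D2:**
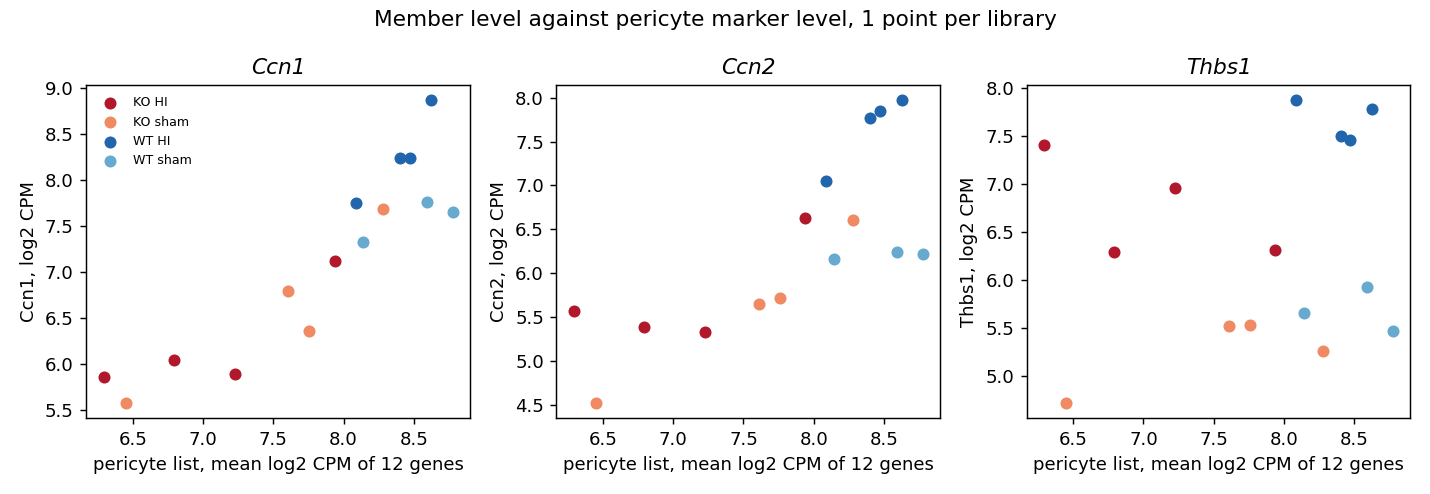
Level of Ccn1, Ccn2 and Thbs1 (log2 CPM) against the mean level of the 12 pericyte markers (log2 CPM), 1 point per library and 1 colour per group. Ccn1 climbs with the marker level over all libraries (Pearson r = 0.906), Ccn2 in WT HI lies above WT sham at a like marker level, and Thbs1 shows HI libraries above sham libraries at low and high marker levels (r = 0.140).

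Without injury the same genotype difference was not called. In KO sham against WT sham, 0 of the 7 genes passed the test, in edgeR and also in DESeq2 and limma-voom, and 0.0135% of all genes did. The fitted value was negative for each of the 7, with log2 fold changes between -0.79 (Ccn1) and -0.21 (Yap1) and adjusted p between 0.477 and 0.627. At an unadjusted p under 0.05 in edgeR there was 1 gene of the 7, Wwtr1, beside 8.56% of all genes. Ccn1 had 47.5, 110.9, 206.4 and 81.9 CPM in KO sham libraries 1, 3, 4 and 6, against 201.8, 160.9 and 217.3 CPM in WT sham libraries 1, 2 and 3. KO sham 4 lay within the wild-type range and the other 3 below it, and the 95% interval of the log2 fold change ran from -1.73 to 0.15. Ccn2 had 22.8, 50.0, 97.4 and 52.4 CPM in KO sham, against 74.1, 71.3 and 75.5 CPM in WT sham. Here the knockout libraries lay on both sides of a narrow wild-type range, and the interval was -1.29 to 0.49.

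For Amotl2 the values were 53.3, 99.0, 142.2 and 108.2 CPM in KO sham, against 144.5, 127.1 and 150.0 CPM in WT sham, and for Thbs1 they were 26.2, 45.8, 38.3 and 46.3 CPM in KO sham, against 44.3, 50.3 and 60.8 CPM in WT sham. Both overlapped. Yap1, Wwtr1 and Tead1 lay lower in each KO sham library than in each WT sham library, as did 5.49% of all genes. Wwtr1 had 188.6, 195.3, 239.6 and 233.8 CPM in KO sham, against 311.3, 274.4 and 285.7 CPM in WT sham (log2 fold change -0.44 ± 0.16 SE, adjusted p = 0.477). Yap1 had 141.8, 154.7, 160.6 and 140.6 CPM in KO sham, against 175.8, 165.7 and 175.9 CPM in WT sham. Tead1 had 86.4, 91.5, 88.3 and 75.0 CPM in KO sham, against 105.0, 94.4 and 101.3 CPM in WT sham. These gaps were narrow, and with 4 and 3 libraries the test did not call them. Ankrd1 had 1, 0, 0 and 0 counts in KO sham, against 1, 2 and 2 in WT sham, too few to compare.

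The mean of both genotype contrasts, which uses all 15 libraries, was lower in KO for all 7 tested genes, against 7.61% of all genes. It shares its libraries with the contrasts above. The log2 fold changes were -1.40 ± 0.30 for Ccn1, -1.14 ± 0.28 for Ccn2, -0.80 ± 0.21 for Amotl2, -0.68 ± 0.11 for Wwtr1, -0.63 ± 0.18 for Thbs1, -0.45 ± 0.14 for Tead1 and -0.34 ± 0.11 for Yap1 (SE), with adjusted p between 0.00666 and 0.0481. None of the 7 was called with the pericyte or the endothelial list as a covariate. Those fits called 208 and 1634 of all genes, against 2384 in the main fit. The count of 7 fell to 4, 2, 4, 3, 2, 4 and 2 when KO sham 3, WT HI 1, WT HI 4, WT HI 5, WT sham 1, WT sham 2 or WT sham 3 was left out.

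**Figure D3:**
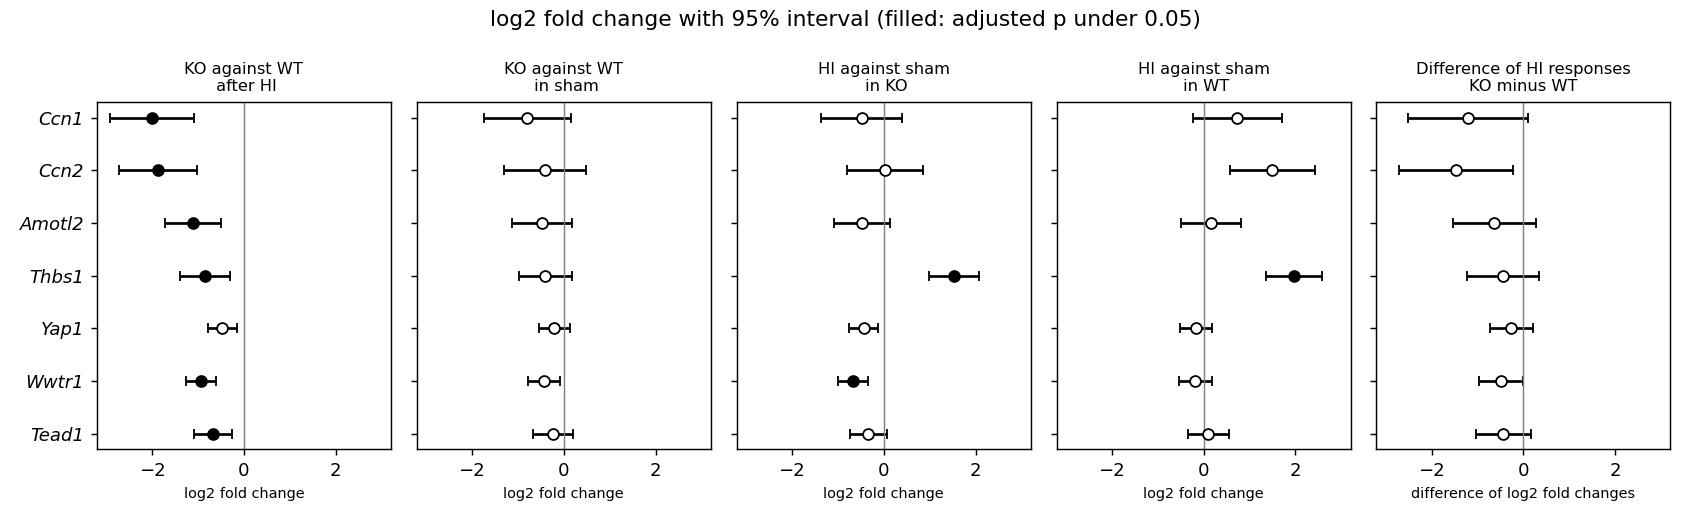
Log2 fold change of the 7 tested genes in 4 contrasts, and the difference of the HI responses in the last panel, with 95% intervals. Filled points passed an adjusted p of 0.05. In KO against WT after HI 6 of the 7 points are filled and all lie below 0, in sham none is filled, and Thbs1 is filled in both HI contrasts.

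HI against sham was compared within each genotype. Thbs1 was higher after HI in both genotypes and was the 1 gene of the 7 called in both, while Ccn2 was higher in each WT HI library than in each WT sham library without passing the test. In WT, Thbs1 had 220.8, 234.6, 176.5 and 180.4 CPM in WT HI, against 44.3, 50.3 and 60.8 CPM in WT sham. The groups lay far apart, and Thbs1 was 3.92-fold higher (log2 fold change 1.97 ± 0.29 SE, 95% interval 1.36 to 2.59, adjusted p = 0.00458). It was the 1 called gene of the 7, where 1.38% of all genes were called higher. Its log2 fold change stayed between 1.87 and 2.25 and was called in all 25 alternatives run. Markers of neutrophils and monocytes were also higher in means after HI. Their list of 6 genes, none at 0, averaged 2.16 ± 0.88 log2 CPM in WT HI and 0.93 ± 0.55 in WT sham (SD, n = 4 and 3), with overlap, and its summed level was 28.9 to 101.5 CPM in WT HI and 25.6 to 41.9 CPM in WT sham. None of the 6 genes was called in WT. WT HI 2 was highest of WT HI both in this list and in Thbs1, and the part of these cells in the Thbs1 result was not tested.

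Ccn2 averaged 208 ± 52.0 CPM in WT HI and 73.6 ± 2.15 CPM in WT sham (SD, n = 4 and 3), a 2.83-fold difference with groups that did not overlap. Of all genes, 15.9% were higher without overlap in this contrast. The log2 fold change of Ccn2 was 1.5 ± 0.43 (SE) and its adjusted p was 0.106. DESeq2 called it (adjusted p = 0.00820), and so did the fits on the WT libraries alone (0.00423), without the libraries high in neuron markers (0.0193), with the pericyte list as a covariate (0.00207) and without KO sham 1 (0.0346). Those 5 fits called 782, 2443, 1789, 1054 and 554 of all genes in this contrast, against 271 in the main fit. With the endothelial or the neuron list as a covariate 2 members were called, Thbs1 among them, in fits that called 1053 and 1304 of all genes. Ccn2 was not called with limma-voom, RLE scaling, no filter or the replicate block. Nor was it called when any 1 library other than KO sham 1 was left out. Ccn2 varied more within KO HI and KO sham (coefficient of variation 49.4% and 55.5%) than within WT HI and WT sham (25.0% and 2.92%). The fit uses 1 estimate of the spread for all 4 groups, and the part of this in the Ccn2 result was not tested. Ccn1 averaged 322 ± 106 CPM in WT HI and 193 ± 29.1 CPM in WT sham, with overlap (log2 fold change 0.74 ± 0.45 SE, adjusted p = 0.567). Ankrd1 had 40 counts in all in WT HI, with 3 or more in each library, and 5 in all in WT sham, with 2 at most. Amotl2, Wwtr1 and Tead1 overlapped between WT HI and WT sham, with log2 fold changes of 0.16, -0.18 and 0.11. Yap1 was slightly lower in each WT HI library than in each WT sham library, as were 15.8% of all genes, at a log2 fold change of -0.17 ± 0.16 (SE).

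In the knockout, Thbs1 had 124.0, 77.99, 169.4 and 79.3 CPM in KO HI, against 26.2, 45.8, 38.3 and 46.3 CPM in KO sham. Each KO HI library lay above all KO sham libraries, as did 6.06% of all genes. Thbs1 was 2.88-fold higher (log2 fold change 1.52 ± 0.25 SE, adjusted p = 0.00584), in a contrast where 4.88% of all genes were called higher. The neutrophil and monocyte list averaged 2.90 ± 0.76 log2 CPM in KO HI and 1.09 ± 0.49 in KO sham (SD, n = 4 each), without overlap, and its summed level was 80.98 to 165.1 CPM in KO HI and 36.0 to 77.4 CPM in KO sham. Of its 6 genes 3 were called higher, and KO HI 3 was highest of KO HI both in the mean of this list and in Thbs1. Wwtr1 averaged 135 ± 32.3 CPM in KO HI and 214 ± 26.1 CPM in KO sham (SD, n = 4 each), without overlap, a pattern that 2.78% of all genes showed. Its log2 fold change was -0.67 ± 0.15 (SE, adjusted p = 0.0216), where 2.13% of all genes were called lower. The Wwtr1 call was lost without KO HI 1, KO HI 3 or KO sham 4.

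The other members were not called in the knockout. Ccn1 averaged 80.4 ± 39.1 CPM in KO HI and 112 ± 68.3 CPM in KO sham, and Ccn2 averaged 57.0 ± 28.2 CPM in KO HI and 55.7 ± 30.9 CPM in KO sham (SD, n = 4 each). Both overlapped widely, and the 95% interval of the log2 fold change was -1.35 to 0.41 for Ccn1 and -0.79 to 0.86 for Ccn2. Amotl2, Yap1 and Tead1 had log2 fold changes of -0.47, -0.43 and -0.33 (adjusted p = 0.369, 0.0973 and 0.342).

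Over both genotypes the HI contrast called Thbs1 higher (log2 fold change 1.75 ± 0.19 SE, adjusted p = 0.000171) and Wwtr1 lower (-0.42 ± 0.11 SE, adjusted p = 0.0272), where 7.29% of all genes were called higher and 3.93% lower. Ccn2 had 0.77 ± 0.29 (SE, adjusted p = 0.107) and Ccn1 0.13 ± 0.30 (SE, adjusted p = 0.836). The Wwtr1 call was lost without WT HI 2, WT HI 5, KO sham 4 or any 1 WT sham library.

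Whether the response to HI differed between genotypes was tested as KO minus WT. The difference was negative for all 7 tested genes and called for none, and 0% of the 14853 genes were called by edgeR, where 768 genes had an unadjusted p under 0.05. DESeq2 called 22 genes and limma-voom 0, none of them among the 7. For Ccn2 the log2 fold change was 0.03 in KO and 1.5 in WT, a difference of -1.47 ± 0.57 (SE, 95% interval -2.70 to -0.23, unadjusted p = 0.0233, adjusted p = 0.932). For Ccn1 it was -0.47 in KO and 0.74 in WT, a difference of -1.21 ± 0.60 (SE, adjusted p = 0.932). For Thbs1 it was 1.52 in KO and 1.97 in WT, a difference of -0.45 ± 0.37 (SE, 95% interval -1.24 to 0.34). No member passed the adjusted test of this difference, in which intervals were wide.

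Over the 15 libraries, Ccn1 correlated with Ccn2 (Pearson r = 0.928, Spearman rho = 0.936, permutation p adjusted over 21 pairs = 0.000105 for both) and with Amotl2 (r = 0.935, rho = 0.950, the same adjusted permutation p). After removing group means r was 0.944 for Ccn2 and 0.889 for Amotl2, and without the 2 libraries farthest from the median of Ccn1 it was 0.884 and 0.906. The relation between Thbs1 and Ccn1 did not pass the test (r = 0.401, rho = 0.457, adjusted permutation p = 0.179 and 0.117), and within groups r was -0.03. Thbs1 and Ccn2 were related over all libraries by r (0.640, adjusted permutation p = 0.0197) and less so by rho (0.550, adjusted permutation p = 0.052). Within groups that r was 0.03, and without the 2 farthest libraries it was 0.441. Yap1 and Tead1 followed each other (r = 0.896, rho = 0.811, adjusted permutation p = 0.00042 and 0.00137), with r of 0.884 within groups and 0.665 without the 2 farthest libraries. Against the pericyte list, in a family of 14 relations, r was 0.968 for Amotl2, 0.906 for Ccn1, 0.880 for Wwtr1 and 0.762 for Ccn2, and it was 0.140 for Thbs1 (rho = 0.946, 0.889, 0.932, 0.779 and 0.154). The adjusted permutation p was 4.67e-05, 4.67e-05, 0.000308, 0.00186 and 0.666. Without the 2 farthest libraries r was 0.931, 0.893, 0.786, 0.661 and -0.13. After removing group means it was 0.946, 0.871, 0.855, 0.859 and -0.06 in the same order. Yap1 and Tead1 had r of 0.643 and 0.619 (rho = 0.789 and 0.750, adjusted permutation p of r = 0.0142 and 0.0172). Their r within groups was 0.263 and 0.148. All permutation p given here belong to r or rho over the 15 libraries, and r within groups has no p. The groups differ in their means, so these p do not separate a relation within groups from a difference between groups.

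Among 10650 genes with a mean of at least 10 CPM, the 5 whose log2 CPM over the 15 libraries was most like that of Ccn1 were C1qtnf1 (r = 0.980), Rerg (0.977), Kcne4 (0.972), Spry1 (0.971) and Ehd1 (0.970). Those most like Ccn2 were Atp8b1 (0.966), Lmna (0.965), Loxl2 (0.964), Ifitm2 (0.957) and Anxa1 (0.955). After removing group means r was 0.931 to 0.959 for the first 5 and 0.874 to 0.949 for the second. Spearman's rho was 0.950 to 0.982 for the first 5 and 0.875 to 0.975 for the second. These values describe likeness over libraries that also differ in their levels of vessel-cell markers.

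Other genes of the pathway were examined in 4 lists, whose counts in KO HI against WT HI stand beside 6.46% of all genes called lower and 5.96% called higher. The lists were chosen with earlier results of these data known, so their counts describe the listed genes and do not test the pathway. Of 18 further targets of YAP and TAZ, 0 were called higher and 9 lower in KO HI against WT HI, with a list median of -0.89 (log2 fold change). The 9 were Igfbp3, Gadd45a, Crim1, Arhgef17, Rbms3, Lats2, Axl, F3 and Ptpn14. Igfbp3, which encodes a binding protein for insulin-like growth factors, averaged 241 ± 89.5 CPM in KO HI and 934 ± 337 CPM in WT HI (SD, n = 4 each; log2 fold change -1.96 ± 0.36 SE, adjusted p = 0.00727). Gadd45a, a growth-arrest gene, averaged 8.69 ± 2.53 CPM in KO HI and 19.0 ± 4.54 CPM in WT HI (log2 fold change -1.13 ± 0.24 SE, adjusted p = 0.0128). With the pericyte list as a covariate 0 of the 18 were called and the median was -0.33, in a fit that called 2019 of all genes. Pericyte markers themselves had a median of -1.18 in the fit without that covariate.

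Few of the further targets were called between HI and sham. In WT, 1 of 18 was called higher and 0 lower, beside 1.38% and 0.444% of all genes, with a list median of 0.16. The called gene was Igfbp3, at 934 ± 337 CPM in WT HI and 222 ± 5.49 CPM in WT sham (SD, n = 4 and 3; log2 fold change 2.07 ± 0.40 SE, adjusted p = 0.0187). In KO, 1 was called higher and 1 lower, beside 4.88% and 2.13% of all genes, with a list median of -0.38. The higher one was Nuak2, a kinase related to AMPK, at 14.5 ± 2.404 CPM in KO HI and 7.23 ± 2.77 CPM in KO sham (log2 fold change 1.001 ± 0.26 SE, adjusted p = 0.0346). The lower one was Ccdc80, which encodes a secreted protein of the matrix, at 34.4 ± 9.34 CPM in KO HI and 64.3 ± 7.57 CPM in KO sham (log2 fold change -0.90 ± 0.18 SE, adjusted p = 0.0124). For Igfbp3 the difference of responses was -1.50 ± 0.51 (SE, adjusted p = 0.902), and none of the 18 passed that test.

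Of 24 Hippo kinases, scaffolds and TEAD partners, 23 were tested. After HI, 1 was called higher and 7 lower in KO against WT, with a list median of -0.38. The 1 of 23 called higher is no more than the share of all genes. The higher one was Stk4, which encodes the Hippo kinase MST1, at 79.96 ± 12.6 CPM in KO HI and 56.6 ± 5.10 CPM in WT HI (log2 fold change 0.50 ± 0.12 SE, adjusted p = 0.0187). The lower ones were Wwc2, Fat4, Amotl1, Vgll3, Tead2, Dchs1 and Tead3. Fat4, an atypical cadherin, averaged 49.9 ± 16.6 CPM in KO HI and 101 ± 11.7 CPM in WT HI (log2 fold change -1.02 ± 0.25 SE, adjusted p = 0.0214), and Dchs1, its binding partner, had a log2 fold change of -1.03. Wwc2, a scaffold of the kinases, averaged 79.0 ± 10.4 CPM in KO HI and 110.5 ± 6.71 CPM in WT HI (log2 fold change -0.48 ± 0.10 SE, adjusted p = 0.0102). With the pericyte list as a covariate 2 of the 23 were called higher and 1 lower, in a fit that called 2019 of all genes. In the HI contrasts 0 were called in WT, and 2 were called lower in KO, Wwc2 and Amotl1, where 2.13% of all genes were lower. Amotl1, an angiomotin relative of Amotl2, averaged 122 ± 29.5 CPM in KO HI and 207 ± 55.5 CPM in KO sham (log2 fold change -0.76 ± 0.20 SE, adjusted p = 0.0383).

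Of 10 relatives of Ccn1, Ccn2, Thbs1 and Ankrd1, 8 were tested, and after HI 0 were called higher and 2 lower in KO against WT, with a list median of -0.93. Ccn4, another secreted CCN protein, averaged 6.25 ± 2.28 CPM in KO HI and 18.7 ± 2.63 CPM in WT HI (SD, n = 4 each; log2 fold change -1.58 ± 0.32 SE, adjusted p = 0.0102). Ankrd23, an ankyrin-repeat relative of Ankrd1, had a log2 fold change of -0.82 ± 0.21 (SE, adjusted p = 0.0226). With the pericyte list as a covariate 0 of the 8 were called, in a fit that called 2019 of all genes. Between HI and sham 0 of the 8 were called in either genotype, with a list median of 0.65 in WT and -0.08 in KO. Ccn5 had 1.77 ± 0.57 in WT (SE, adjusted p = 0.157) and Thbs2 0.20 ± 0.38 (SE, adjusted p = 0.913), both log2 fold changes.

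Immediate early genes were looked at because Ccn1 and Ccn2 are also induced within minutes by serum and by cell handling. Of 17 such genes, 0 were called higher and 2 lower in KO HI against WT HI, with a list median of -0.04. The lower ones were Nr4a1, an orphan nuclear receptor, at 119.7 ± 65.6 CPM in KO HI and 398 ± 154 CPM in WT HI (log2 fold change -1.73 ± 0.49 SE, adjusted p = 0.0356), and Klf4, a zinc-finger factor of vessel cells (log2 fold change -1.27 ± 0.37 SE, adjusted p = 0.0415). Fosb had -1.01 ± 0.39 (SE, adjusted p = 0.104). In KO sham against WT sham 0 were called, but all 17 had a negative log2 fold change and the list median was -0.47. Of the 17, 4 had an unadjusted p under 0.05 in that edgeR contrast, beside 8.56% of all genes. Over both treatments 0 were called higher and 3 lower in KO, beside 8.44% and 7.61% of all genes. After HI in WT 0 of the 17 were called. In KO 2 were called higher, where 4.88% of all genes were, namely Atf3 at a log2 fold change of 1.37 and Ier3, at 113 ± 40.1 CPM in KO HI and 48.9 ± 16.8 CPM in KO sham (log2 fold change 1.21 ± 0.28 SE, adjusted p = 0.0244).

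**Figure D4:**
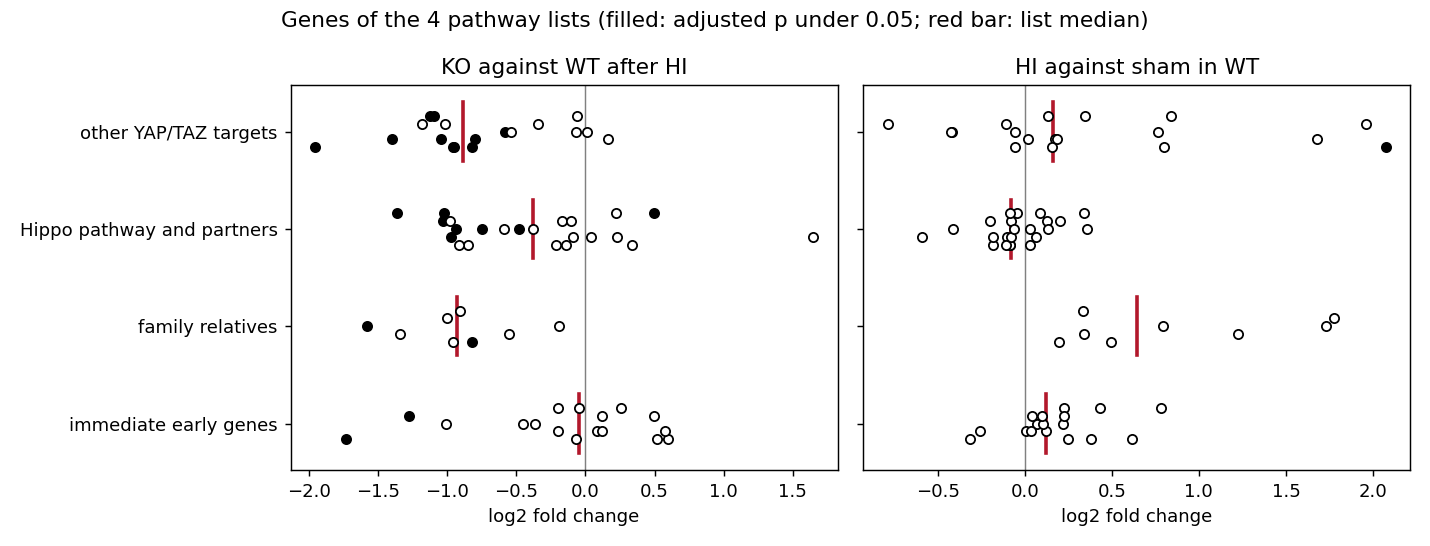
Log2 fold change of each tested gene of the 4 lists in KO against WT after HI and in HI against sham in WT. Filled points passed an adjusted p of 0.05 and the red bar is the list median. In KO against WT after HI the medians of further targets and of family relatives are -0.89 and -0.93 and that of early genes is -0.04. The genotype contrast in sham is not shown. In the WT injury contrast 1 gene, Igfbp3, is filled.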

How the data were processed

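RNA of PDGFRβ-positive cells was sequenced in 15 libraries. Per the labels, RNA was taken up on small columns and a commercial service prepared the sequencing libraries. The authors deposited 1 table of expected counts per gene, not normalised. No unit stands in the header, and it was read from the values (3.12% to 3.92% not whole per library) and from RSEM among the tools. RSEM 1.3.1, DESeq2 1.4.5, Bowtie, Bowtie2 2.4.4 and HISAT2 2.1.0, with build mm39, are listed in the submitters' processing notes, their roles not given in the sources used here. Of 65535 lines, 17892 held values and 47643 were blank, and 17874 were matched to a symbol by Entrez identifier.

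Expected counts were rounded to whole numbers. One fit of 4 group means was made with edgeR 4.0.16 in R 4.3.3 (TMM, filterByExpr, glmQLFit, glmQLFTest), giving 7 contrasts with Benjamini-Hochberg adjustment over 14853 genes. The biological coefficient of variation was 38.6%. Standard errors were derived from the test's F, and intervals are at 95%. CPM use normalised library sizes, and log2 CPM a prior count of 2. CPM per kb divide by merged exons of GENCODE genes, rare transcripts included. Permutation p of correlations used 100000 resamples, where 1e-05 is the smallest possible. Depth limits Ankrd1 alone among the members, and intervals cover the spread between libraries.

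Alternatives were DESeq2 1.42.0, limma-voom (limma 3.58.1), RLE scaling, no filter, only the groups compared, a replicate block, marker lists as covariates, leaving out each library, and leaving out the 4 libraries with neuron markers above 2.5 log2 CPM. The code was tested on simulated data. Members and lists were chosen with earlier results of these data known. Of each list the 4 genes with the smallest p in any contrast were named with values, and Atf3, Dchs1 and the other called genes of the lists were named after their values were seen. Replicates differed more than counting noise allows, so no 2 libraries were treated as copies. Same-numbered libraries correlated between -0.784 and 0.793 in their deviations. Libraries of different numbers were not compared in this way, so whether the numbers pair libraries across groups is not known.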

Additional observations from a re-analysis of the deposited data

Results flagged for a closer look

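In 24 groups of 4 libraries (8 genes in KO HI, KO sham and WT HI), 3 had a library farther from the others than Dixon's 95% limit of 0.829. Chance gives about 1 in 20 for independent, normally spread values. These groups are not independent, since r between Ccn1 and Ccn2 was 0.944 within groups. KO HI 4 had 138.8 CPM of Ccn1, against 65.9 in the next of the KO HI libraries. The same library had 98.98 CPM of Ccn2, against 47.2 in the next. Its pericyte list was the highest of KO HI, at 7.94 log2 CPM. The third was Ankrd1 in KO sham 1, at 0.0732 CPM, which is 1 count where the other KO sham libraries had 0. With all the others at 0 the ratio is fixed at 1, so this flag carries no information.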

How the results depend on the processing

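Over 1204 alternative values of single genes, 1046 kept direction and side of the threshold, 113 lost a call, 25 gained one and 20 changed sign. The call of Wwtr1 in KO against WT after HI and of Thbs1 in HI against sham in WT held in 25 of 25 alternatives, and those of Ccn1 and Ccn2 after HI in 22 of 25, being lost with the replicate block, the pericyte covariate and the endothelial covariate. The cause of these changes was not tested. Leaving out libraries or comparing fewer groups uses fewer samples, and the number of genes called rose in some of those fits and fell in others.

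Members called in KO against WT after HI numbered 6, and 1 with the replicate block (Wwtr1), 1 with the pericyte and 1 with the endothelial covariate. Leaving out 1 library gave 3 to 7, with 3 without KO HI 1, WT HI 1, WT HI 4 or WT HI 5. Over both treatments there were 7, and 4 with the block, 0 with the pericyte and 0 with the endothelial covariate, and 2 to 7 with 1 library left out. In HI against sham in KO there were 2, and 1 with the block, 0 with the KO groups alone, and 1 to 3 with 1 library left out, 1 without KO HI 1, KO HI 3 or KO sham 4. In the WT contrast there was 1, and 2 with DESeq2, the endothelial covariate, the neuron covariate, the WT groups alone or without the libraries high in neuron markers, 3 with the pericyte covariate, and 1 to 2 with 1 library left out, 2 without KO sham 1. Over both genotypes there were 2, and 1 to 3 with 1 library left out.

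Genes called moved more. After HI the 1844 became 3399 with DESeq2, 2982 with the endothelial covariate, 21 with the replicate block, 3990 without the libraries high in neuron markers and 481 to 3605 with 1 library left out. In sham the 2 became 32 with DESeq2, 7 with the endothelial, 8 with the neuron and 4 with the pericyte covariate, 0 with limma-voom, 1 with the sham groups alone, 1 with the block, 11 without high-neuron libraries and 1 to 2 with 1 left out. Over both treatments the 2384 became 4519 with DESeq2, 208 with the pericyte covariate, 871 with the block and 575 to 4441 with 1 left out. In HI against sham in KO the 1041 became 1932 with DESeq2, 4782 with the endothelial, 2838 with the neuron and 4228 with the pericyte covariate, 16 with the KO groups alone, 73 with the block, 2903 without high-neuron libraries and 355 to 1927 with 1 left out. In WT the 271 became 782 with DESeq2, 1053, 1304 and 1054 with those covariates, 2443 with the WT groups alone, 16 with the block, 1789 without high-neuron libraries and 48 to 554 with 1 left out. Over both genotypes the 1666 became 2540 with DESeq2, 5158, 3650 and 4729 with those covariates, 647 with the block, 3942 without high-neuron libraries and 942 to 2535 with 1 left out. For the difference of responses the 0 became 22 with DESeq2, 5, 1 and 2 with those covariates, 245 without high-neuron libraries and 0 to 2 with 1 left out.

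The sign changes were all of uncalled log2 fold changes. In KO against WT in sham Ccn2 took 0.02 without high-neuron libraries, 0.28 with the pericyte and 0.07 with the endothelial covariate, and Amotl2 took 0.14 and 0.04 with those covariates. In HI against sham in KO Ccn2 took -0.01 with the KO groups alone, -0.09 without high-neuron libraries and -0.39 to 0.45 with 1 left out, and Ccn1 took 0.06 and 0.12 with the covariates and -0.89 to 0.01 with 1 left out. In WT the block gave -0.01 for Tead1 and -0.02 for Amotl2, and the neuron covariate -0.07 for Amotl2. Over both genotypes Ccn1 took -0.01 with the neuron covariate and -0.08 to 0.37 with 1 left out, and Amotl2 0.06 and 0.10 with the pericyte and endothelial covariates. Whether replicate numbers pair the libraries is not known, and why calls were lost under the block was not tested.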
